A study of Mus musculus with 10 samples.

Results

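The comparison set mouse mammary carcinoma lines that had left the primary site, 3 grown from circulating tumour cells (CTC) in blood and 3 from lung metastases, as 1 pool of 6 disseminated lines against 3 lines grown from fat pad tumours (primary). These 9 lines were 9 of the 10 libraries of the series. The members described here are the genes for which all 6 disseminated lines lay on one side of all 3 primary lines. They numbered 454 of 17355 named genes tested, with 207 higher and 247 lower in the disseminated lines. The comparison asks whether lines from blood and lung share levels that lines from the primary site do not have.

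Each derived line came from a tumour or blood sample of NSG mice (NOD-SCID-GAMMA), an immunodeficient strain without T, B and natural killer cells. The tumour cells were 4T1-hHER2-Luc, a derivative of the 4T1 mammary carcinoma line of BALB/cfC3H mice that stably expresses human HER2 and luciferase from a lentivirus. All 9 derived lines, primary lines included, go back to CTCs taken from mice in which orthotopic 4T1-hHER2-Luc tumours had spread, so the primary lines were themselves grown from cells that had passed through blood. The tenth library was the parental line, which carries the same construct, has mammary gland as its labelled tissue, and is used here only as a point of reference. Line names give the group and the title number: CTC 1, 3 and 6, metastasis 3, 5 and 7, and primary 5, 7 and 8. Each line had 1 library. The labels do not say whether the lines came from separate mice, so every p-value measures only the spread between these lines, which may be partly technical. The labels name polyA RNA as the molecule and a total RNA kit for the library, and no treatment.

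A carcinoma cell that leaves its tumour has to loosen its junctions with its neighbours, cross the matrix, survive in blood and grow in another organ. Epithelial cells are held together by adherens junctions, tight junctions and desmosomes, anchored to actin and keratin filaments inside the cell. Loss of these proteins, in part or in full, with gain of mesenchymal ones such as vimentin is called epithelial to mesenchymal transition. The 4T1 line is widely used because it spreads from the mammary fat pad to the lung on its own.

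The 10 libraries held 79869760 to 97722716 estimated counts. Of these, 19.69% to 22.77% belonged to assembled transcripts that carry no gene name and were not tested, so reads of a named gene may in part have been counted under such a transcript. Levels are CPM, which are counts scaled to a common library size. Carcinoma markers were present in every line. Krt18, a keratin of simple epithelia, was at 309 to 1466 CPM in the disseminated lines and 1053 to 1215 CPM in the primary lines. Epcam, an epithelial adhesion molecule, was at 16.01 CPM or more in each disseminated line and at 56.5 CPM or more in each primary line. Mouse Erbb2 was at 25.9 to 60.5 CPM in the disseminated lines and 33.1 to 52.5 CPM in the primary lines.

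Markers of blood cells and lung epithelium were low. Of 15 leukocyte markers, 12 stayed under 1 CPM in every derived line and Cd3e, Adgre1, S100a9 and Ly6g were at 0, and the summed level of the list was 5.1 to 22.9 CPM in the disseminated lines and 4.89 to 11.1 CPM in the primary lines. The highest level of a gene on the list was that of Mertk, a receptor for dying cells, at 19.4 CPM in metastasis 3. Of 11 lung epithelial markers, 8 stayed under 1 CPM, the surfactant genes Sftpa1, Sftpc and Sftpd were at 0, and the sum was 0.716 to 4.82 CPM in the disseminated lines and 1.43 to 4.71 CPM in the primary lines. The globin genes were at 0 in all 9 lines. The fibroblast list summed to 78.6 to 471 CPM in the disseminated lines and 230 to 396 CPM in the primary lines. Its most abundant members were Gsn, an actin-severing protein gene, at 62.1 to 326 CPM in the disseminated lines and 151 to 388 CPM in the primary lines, and Pdgfra, a growth factor receptor gene of fibroblasts, at 10.1 to 270 CPM in the disseminated lines and 4.01 to 58.3 CPM in the primary lines. Pdgfra was highest in metastasis 5 (270 CPM), CTC 3 (143 CPM) and metastasis 3 (126 CPM). The endothelial list summed to 101 to 207 CPM in the disseminated lines and 93.5 to 144 CPM in the primary lines, mostly Eng, a TGF-beta co-receptor gene. What part other cell types or the carcinoma cells themselves have in these levels was not tested. In such bulk libraries fewer cells of a type and less RNA per cell cannot be told apart.

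The genes with separated lines made up 2.62% of those tested, 1.19% higher and 1.42% lower in the disseminated lines. The separation was part of the choice of these genes, so it is described and not tested. Most margins were narrow. On the log2(CPM + 0.5) scale the gap between the nearest lines of the pools had a median of 0.09 among the 207 higher genes and 0.11 among the 247 lower genes. It reached 0.5 at 9 higher and 17 lower genes, and 1 at 1 higher and 9 lower genes. The fitted log2 change had a median of 0.84 for the higher genes and -1.11 for the lower ones, and its size was at least 1 for 75 and 132 of them. Over all genes tested the median log2 change was 0.03, with 9033 genes on the higher and 8322 on the lower side. When library sizes were taken as plain totals of the named genes, 34.8% of the separated genes were higher in the disseminated lines, against 45.6% with TMM factors.

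The narrowest members show where the rule ends. Rbm15b, the lowest margin on the higher side, had its nearest disseminated line at 148.5 CPM and its nearest primary line at 148.5 CPM, a gap of 0.000164. Emc8 on the lower side had a gap of 0.000276. Just outside the rule, Cpe (-4.63e-05) and Crim1 (-6.41e-05) had gaps below 0 on the same scale, which means that their pools overlapped.

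The quasi-likelihood test of edgeR, adjusted by Benjamini-Hochberg over all 17355 genes, called 1 gene, 0.00576% of those tested, and this gene, Acap1, was lower in the disseminated lines. No gene was called higher. At an unadjusted p under 0.05 there were 1290 genes (7.43%), 577 (3.32%) higher and 713 (4.11%) lower. DESeq2 called 126 of the 17355 genes, 57 higher and 69 lower. Of these 126, 90 had separated lines, against 2.62% of all genes tested. Calls and separation rest on the same counts of the same lines, so this overlap supports neither. The spread between lines was wide, with a common biological coefficient of variation of 0.565. All other genes named below did not pass the edgeR test, and their values are given as levels and fitted log2 changes.

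**Figure D1:**
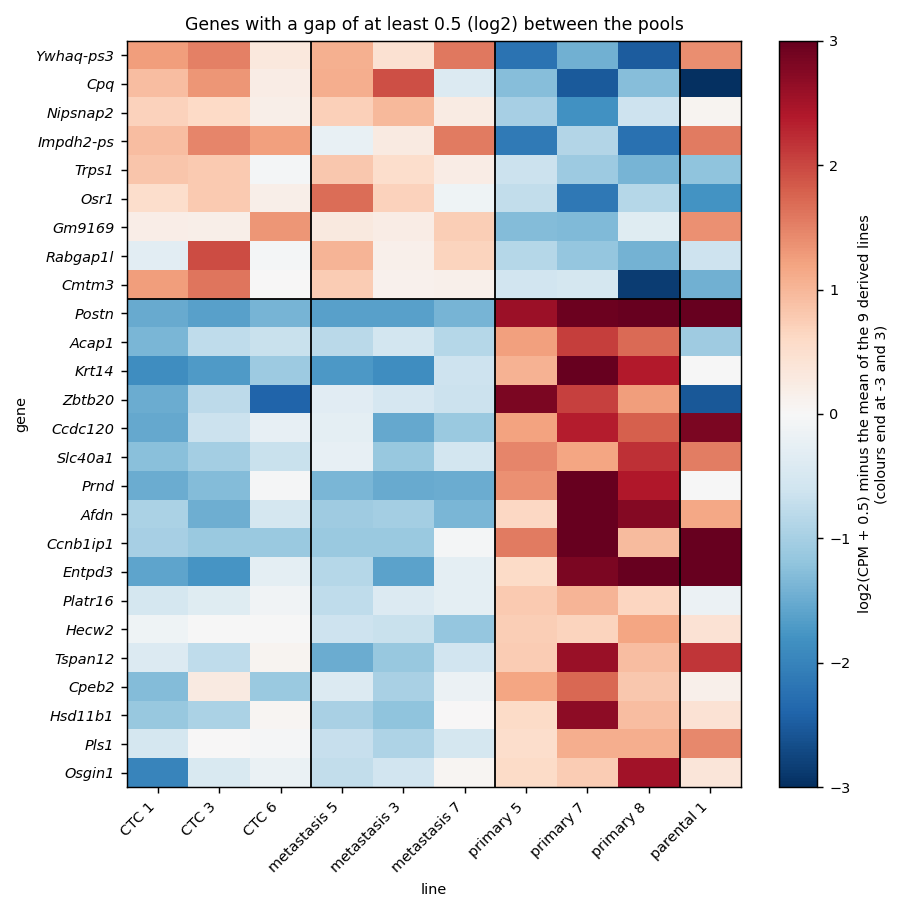
Level of the 26 genes whose pools were at least 0.5 apart on the log2(CPM + 0.5) scale, as the difference from the mean of the 9 derived lines (colour), with genes in rows and lines in columns. The 6 disseminated columns stand left of the 3 primary columns, and the parental column is on the far right. The 9 genes above the horizontal line were higher in the disseminated lines and the 17 below it were lower. The parental column changes from gene to gene between the colours of both pools.

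Promoter sequences are shown for 6 separated genes, to give the letters around the start sites of genes that differed together. They come from RefSeq (GRCm38.p6) and run from 250 bases before to 50 bases after a start site, written 5′ to 3′ on the gene's strand. The 4 motifs searched on both strands are in capitals: the E-box CACGTG, the GATA site GATAAG, the AP-1 site TGANTCA and the GC box GGGCGG, which reads CCGCCC on the other strand. The first 4 windows belong to genes lower in the disseminated lines: Postn (chr3:54360857-54361156, plus strand), Afdn (chr17:13760291-13760590, plus strand), Zbtb20 (chr16:43247034-43247333, plus strand) and Epcam (chr17:87635729-87636028, plus strand). The last 2 belong to genes higher there: Nipsnap2 (chr5:129724825-129725124, plus strand) and Mxd4 (chr5:34187661-34187960, minus strand).
Postn: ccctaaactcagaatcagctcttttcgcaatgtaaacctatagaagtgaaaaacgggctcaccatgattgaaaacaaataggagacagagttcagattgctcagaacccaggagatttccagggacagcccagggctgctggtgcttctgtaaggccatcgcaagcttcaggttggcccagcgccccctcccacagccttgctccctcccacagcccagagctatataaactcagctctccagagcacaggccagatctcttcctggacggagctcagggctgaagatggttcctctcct
Afdn: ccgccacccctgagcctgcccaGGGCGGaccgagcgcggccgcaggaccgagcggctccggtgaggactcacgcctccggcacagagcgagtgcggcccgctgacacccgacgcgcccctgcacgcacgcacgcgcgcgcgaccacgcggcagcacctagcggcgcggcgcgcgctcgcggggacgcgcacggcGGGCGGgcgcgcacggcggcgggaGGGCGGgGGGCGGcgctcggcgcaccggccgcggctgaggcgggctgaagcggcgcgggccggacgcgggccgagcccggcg
Zbtb20: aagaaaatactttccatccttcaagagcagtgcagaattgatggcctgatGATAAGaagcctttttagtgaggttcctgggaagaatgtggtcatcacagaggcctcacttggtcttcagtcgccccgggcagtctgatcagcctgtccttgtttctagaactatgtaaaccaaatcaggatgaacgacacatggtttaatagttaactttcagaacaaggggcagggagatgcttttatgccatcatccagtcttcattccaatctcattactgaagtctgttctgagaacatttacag
Epcam: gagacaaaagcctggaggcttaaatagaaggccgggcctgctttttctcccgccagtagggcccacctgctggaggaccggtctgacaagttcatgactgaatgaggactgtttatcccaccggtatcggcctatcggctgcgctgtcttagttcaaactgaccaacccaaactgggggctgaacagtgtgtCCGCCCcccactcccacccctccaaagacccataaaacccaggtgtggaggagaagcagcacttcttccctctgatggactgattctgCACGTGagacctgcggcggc
Nipsnap2: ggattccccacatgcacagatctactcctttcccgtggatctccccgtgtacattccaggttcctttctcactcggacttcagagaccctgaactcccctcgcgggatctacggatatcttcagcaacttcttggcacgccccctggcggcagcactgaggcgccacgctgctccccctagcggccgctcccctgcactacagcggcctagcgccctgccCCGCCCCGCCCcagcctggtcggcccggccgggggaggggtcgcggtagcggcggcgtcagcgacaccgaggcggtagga
Mxd4: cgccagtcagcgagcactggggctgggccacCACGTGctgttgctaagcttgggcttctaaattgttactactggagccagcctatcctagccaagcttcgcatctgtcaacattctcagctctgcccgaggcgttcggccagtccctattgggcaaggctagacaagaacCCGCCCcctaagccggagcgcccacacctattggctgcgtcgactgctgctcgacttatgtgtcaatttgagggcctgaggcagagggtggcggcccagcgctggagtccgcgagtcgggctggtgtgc

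Of the 6 windows, those of Epcam and Mxd4 hold an E-box, the site bound by MYC with MAX and by the MXD proteins with MAX. The Zbtb20 window holds a GATA site, the Afdn window has 4 GC boxes, and the Postn window has none of the 4 motifs. Windows were at hand for 275 of the 454 separated genes and for 10989 of the 17355 tested. The E-box occurred in 13.2% of the windows of higher genes, 11.4% of those of lower genes and 9.68% of those of all tested genes. The AP-1 site occurred in 3.29% of the windows of higher genes and 11.4% of those of lower genes, against 5.64% over all tested genes. The GATA site was in 7.89%, 9.41% and 4.98% of them in the same order, and the GC box in 57.2%, 54% and 59.9%. These shares count letters in a window and say nothing of binding.

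Genes lower in the disseminated lines included a GTPase-activating protein of endosomes, parts of cell junctions, matrix proteins, an iron exporter and several transcription factors. Acap1 (ENSMUSG00000001588.12, chr11:69881567-69895539, minus strand, GRCm38) activates the GTPase of ARF6 and helps return integrins and other cargo from endosomes to the cell surface. It was at 5.19 CPM in CTC 1, 8.16 in CTC 3, 8.65 in CTC 6, 9.45 in metastasis 3, 7.89 in metastasis 5 and 7.63 in metastasis 7, against 33.9, 61.4 and 47.1 CPM in primary 5, 7 and 8. The disseminated lines lay close together, and the lowest primary line was far above the highest of them. The mean was 7.83 ± 1.45 CPM in the disseminated lines (SD, n = 6) and 47.4 ± 13.8 CPM in the primary lines (SD, n = 3). Acap1 was lower in the disseminated than in the primary lines, by a log2 change of -2.60 with SE 0.25 (edgeR quasi-likelihood test, Benjamini-Hochberg adjusted p 0.0215). The parental line, at 6.51 CPM, was among the disseminated values.

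The size of the Acap1 difference was steady and its call was not. Over 20 alternatives the log2 change ran from -2.80 to -2.38, and the gene was called in 10 of them, with adjusted p from 3.1e-17 (DESeq2) to 0.191 (edgeR without primary 7), all with Benjamini-Hochberg adjustment. In edgeR the call was also lost without primary 8 (adjusted p 0.0878), CTC 3 (0.135), CTC 6 (0.0637) and metastasis 3 (0.0816), 5 (0.115) or 7 (0.118), each a log2 change between -2.67 and -2.59. With the title number as a fixed replicate block, which pairs the lines and uses up most of the degrees of freedom, the edgeR adjusted p was 0.183 and no gene was called (2392 at an unadjusted p under 0.05). With the number as a random block limma-voom called 8 genes (Benjamini-Hochberg adjustment), among them Acap1 and Postn (adjusted p 0.00588 each), Platr16 (0.029), Zbtb20 (0.0358), Slc40a1 (0.0424) and Nipsnap2 (0.0424), of which only Acap1 passed in edgeR without the block.

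**Figure D2:**
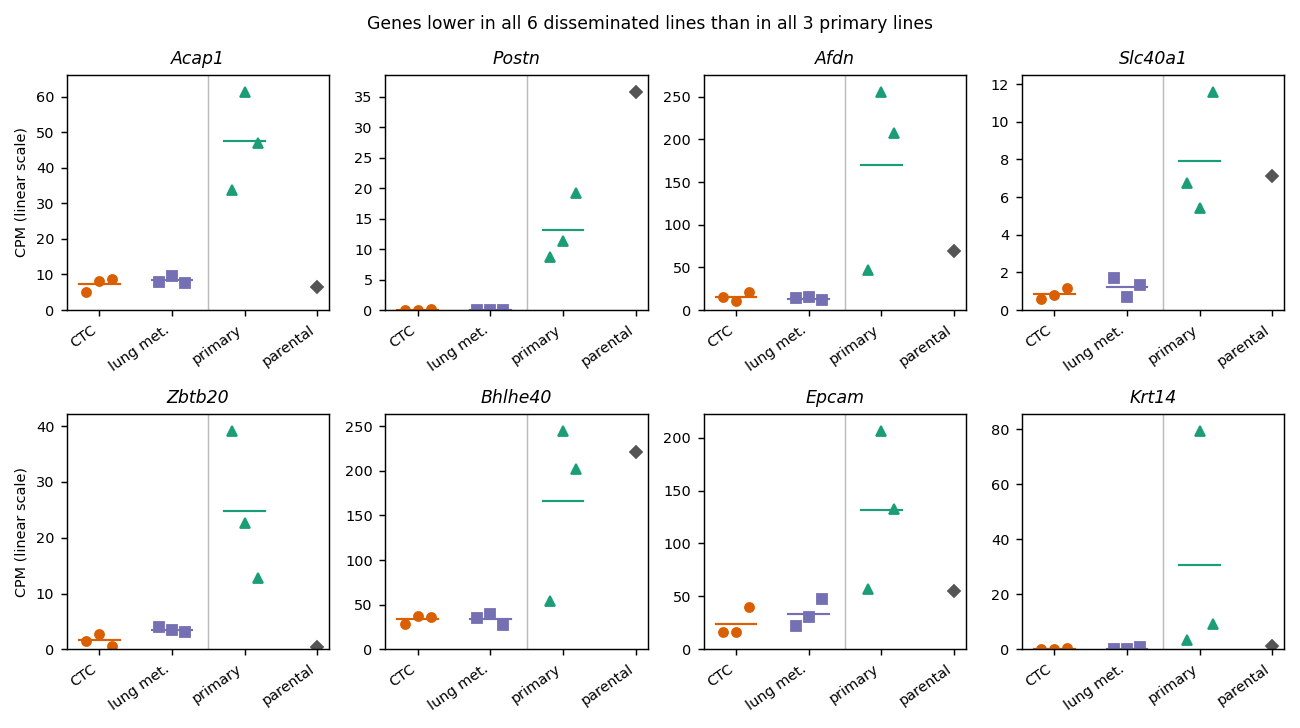
CPM on a linear axis of 8 genes lower in all 6 disseminated lines, 1 panel per gene, with 1 point per line and a short bar at the mean of each group of 3. CTC and lung metastasis lines stand left of the vertical line, primary and parental lines right of it. At Acap1 the 6 disseminated points lie between 5.19 and 9.45 CPM and the primary points between 33.9 and 61.4 CPM. At Afdn, Bhlhe40 and Epcam primary 5 is the primary point nearest to the disseminated lines.

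Junction genes came next. Afdn (ENSMUSG00000068036.15, chr17:13760539-13906150, plus strand) encodes afadin, which ties nectins at adherens junctions to actin. It was at 10.7 to 20.8 CPM in the disseminated lines (median 14.4) and at 47.1, 256 and 207 CPM in primary 5, 7 and 8. All 6 disseminated lines were low, and primary 5 lay much nearer to them than the other primary lines did. The log2 change was -3.55 (SE 0.43), with an adjusted p of 0.0526 in edgeR with Benjamini-Hochberg adjustment, just above the threshold of 0.05. Exons of Afdn overlap those of Tcte2 on the other strand, and reads of such genes cannot be told apart where strand was not used. The parental line was at 69.0 CPM, on the primary side.

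Epcam (ENSMUSG00000045394.9, chr17:87635979-87651129, plus strand) was at 16.01 to 48.0 CPM in the disseminated lines (median 26.1) and at 56.5, 206 and 133 CPM in primary 5, 7 and 8. The pools did not overlap, but metastasis 7 at 48.0 CPM came close to primary 5. Its log2 change was -2.20 (SE 0.44). Krt14, a keratin of basal epithelial cells, was at 0 to 0.695 CPM in the disseminated lines (median 0.0576) and at 3.25, 79.3 and 9.06 CPM in primary 5, 7 and 8. In counts this was 0, 4, 24, 0, 4 and 50 in CTC 1, 3 and 6 and metastasis 3, 5 and 7, against 232, 5956 and 666 in primary 5, 7 and 8. Krt14 was thus near the floor in the disseminated lines, and primary 7 held most of its counts. Its fitted log2 change of -7.28 (SE 1.48) depends on the small value added to each count. Pkp1, a desmosomal plakophilin, was at 0.224 to 1.00 CPM in the disseminated lines (median 0.505) and at 2.34, 29.1 and 1.35 CPM in primary 5, 7 and 8. Here too 1 primary line, primary 7, stood far above the rest.

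These 4 genes were the separated members of an epithelial adhesion and keratin list of 28 tested genes, where 1.42% of all genes tested were separated on the lower side. Of the 28, 26 had a lower and 2 a higher fitted value in the disseminated lines, none was called by edgeR, and 11 of the lower ones had an unadjusted p under 0.05, as did 4.11% of all genes tested on that side. The median log2 change of the list was -1.73, against 0.03 over all genes tested. Without primary 7 it was -0.83, and without any other single line it was between -2.21 and -1.55. Cdh1, the E-cadherin gene of adherens junctions, was at 77.7 to 399 CPM in the disseminated lines (median 91.7) and at 108, 634 and 415 CPM in primary 5, 7 and 8. Its pools overlapped, with metastasis 7 (399 CPM) and CTC 6 (150 CPM) above primary 5. The claudins Cldn3 and Cldn4 of tight junctions also overlapped, with log2 changes of -2.65 (SE 0.63) and -2.59 (SE 0.63). Tjp1, a tight junction scaffold, and Krt8, a keratin of simple epithelia, were the 2 members on the higher side. The mean log2 level of the list was 3.46 to 4.90 in the disseminated lines and 4.65 to 6.51 in the primary lines, so the pools overlapped as a list.

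**Figure D3:**
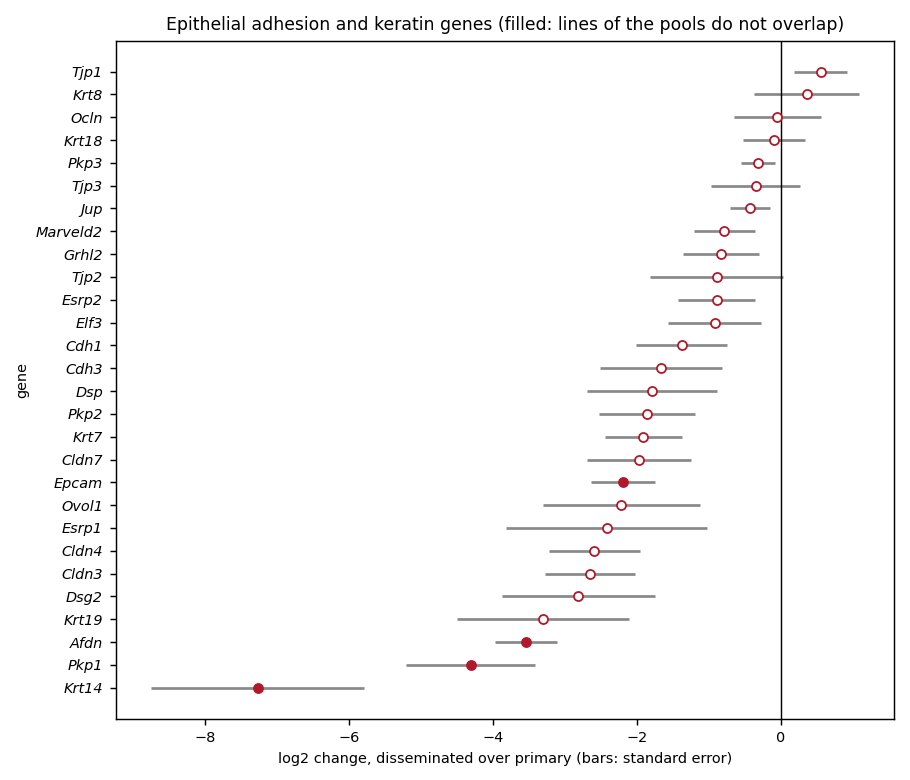
Fitted log2 change of the 28 tested epithelial adhesion and keratin genes, disseminated over primary (horizontal axis), with bars of 1 standard error and genes on the vertical axis. Filled points are the 4 genes whose lines did not overlap (Epcam, Afdn, Pkp1 and Krt14), and open points overlapped. All but Tjp1 and Krt8 lie left of 0.

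Of 18 mesenchymal genes tested, 12 were on the higher and 6 on the lower side, with a median log2 change of 0.24 (0.060 without primary 8, 0.42 without primary 7) and none called. Vim, the vimentin gene, was at 596 to 4762 CPM in the disseminated lines (median 2740) and at 3740, 2142 and 946 CPM in primary 5, 7 and 8. The lowest and highest Vim values of the 9 lines were both in the disseminated pool.

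Of the matrix genes, Postn had the widest gap of all 454 genes. Postn (ENSMUSG00000027750.16, chr3:54361109-54391037, plus strand) encodes periostin, a secreted matrix protein that binds integrins. It had 3, 0, 6, 0, 0 and 6 counts in CTC 1, 3 and 6 and metastasis 3, 5 and 7, against 616, 853 and 1415 counts in primary 5, 7 and 8. Of the 6 disseminated lines 3 had no count at all, and the highest was at 0.0914 CPM. The levels were 8.63, 11.3 and 19.3 CPM in the primary lines and 35.8 CPM in the parental line. The fitted log2 change was -8.46 (SE 1.01), which depends on the value added to each count, with an adjusted p of 0.0526 in edgeR with Benjamini-Hochberg adjustment. limma-voom called Postn, as did edgeR with total-count scaling and with the stricter filter. Fbln2, the fibulin 2 gene of basement membrane and elastic fibres, was at 70.0 to 276 CPM in the disseminated lines (median 163) and 318, 627 and 306 CPM in primary 5, 7 and 8. Postn and Fbln2 were the separated members among 22 matrix genes, where 1.42% of all genes tested were separated on the lower side. Of the 22, 14 were on the higher side, with a median log2 change of 0.13. That median was below 0 without metastasis 5 (-0.30) or primary 8 (-0.011). Of the 22, 5 had an unadjusted p under 0.05 on the lower and 0 on the higher side, against 4.11% and 3.32% of all genes tested. Itgb6, the beta subunit of an integrin of epithelial cells, was the separated member of the 19 integrin genes, at 0.0802 to 0.556 CPM in the disseminated lines and 0.630 to 8.19 CPM in the primary lines. It lies under the level set for named genes and was chosen after its values were seen.

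Slc40a1 (ENSMUSG00000025993.10, chr1:45908068-45926523, minus strand) encodes ferroportin, the only known iron exporter of mammalian cells. It was at 0.602 to 1.72 CPM in the disseminated lines (median 0.98) and at 6.75, 5.44 and 11.6 CPM in primary 5, 7 and 8. The highest disseminated line, metastasis 5, was well under the lowest primary line. The log2 change was -2.92 (SE 0.41), with an adjusted p of 0.115 in edgeR with Benjamini-Hochberg adjustment. With the title number as a random replicate block it was called by limma-voom (log2 change -2.52, Benjamini-Hochberg adjusted p 0.0424), and with a fixed block its log2 change in edgeR was -2.01, not called. The parental line was at 7.11 CPM. The other 12 iron genes overlapped, 6 of them on the lower side, and the median log2 change of the 13 was -0.042 (0.043 without primary 7). Of the 13, 3 had an unadjusted p under 0.05 on the lower and 1 on the higher side, against 4.11% and 3.32% of all genes tested. The mean log2 level of the 13 was 5.817 to 5.92 in the disseminated lines and 6.087 to 6.185 in the primary lines. The pools did not overlap in this mean, which includes Slc40a1 and was not tested. Tfrc, the transferrin receptor that brings iron in, was at 51.4 to 156 CPM in the disseminated lines (median 108) and 126 to 352 CPM in the primary lines. Lcn2, a siderophore-binding lipocalin, was at 3.10 to 51.7 CPM in the disseminated lines (median 33.6) and 1.85 to 7.36 CPM in the primary lines.

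Among transcription factors, Zbtb20 (chr16:42875881-43642602, plus strand), a BTB zinc finger repressor, was at 0.548 to 3.92 CPM in the disseminated lines (median 2.90) and 39.1, 22.7 and 12.8 CPM in primary 5, 7 and 8. The log2 change was -3.30 (SE 0.55), and the parental line, at 0.457 CPM, was below all 9. Bhlhe40, a helix-loop-helix repressor induced by hypoxia and part of the circadian clock, was at 26.8 to 39.3 CPM in the disseminated lines (median 35.8) and 54.0, 244 and 202 CPM in primary 5, 7 and 8. Its disseminated lines lay close together, and primary 5 was the nearest primary line. Its log2 change was -2.29 (SE 0.37), and the parental line was at 221 CPM, with the upper primary lines. Both genes share exon positions with transcripts on the other strand.

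The rest of the 15 lower genes with the smallest p span signalling and metabolism. Platr16, a long noncoding RNA, was at 18.5 to 29.7 CPM in the disseminated lines (median 24.0) and 54.8, 65.0 and 50.1 CPM in primary 5, 7 and 8. Pag1, a membrane adaptor that brings the kinase Csk to lipid rafts, was at 0.290 to 1.00 CPM in the disseminated lines (median 0.629) and 1.30, 7.16 and 6.74 CPM in primary 5, 7 and 8. Tspan12, a tetraspanin that aids frizzled signalling, was at 0.731 to 3.15 CPM in the disseminated lines (median 1.66) and 5.28, 20.1 and 6.00 CPM in primary 5, 7 and 8. At Pag1, as at many of these genes, primary 5 lay nearest to the disseminated lines. Entpd3, an enzyme that splits extracellular nucleotides, was at 0.0630 to 1.07 CPM in the disseminated lines (median 0.361) and 2.37, 13.1 and 15.2 CPM in primary 5, 7 and 8. B4galnt3, a glycosyltransferase, was at 0.487 to 2.87 CPM in the disseminated lines (median 1.25) and 3.89, 52.9 and 10.6 CPM in primary 5, 7 and 8. Ccdc120, a coiled-coil protein gene, was at 0.158 to 1.11 CPM in the disseminated lines (median 0.542) and 3.88, 9.28 and 6.11 CPM in primary 5, 7 and 8. The fitted log2 changes of these 6 genes ran from -4.32 (SE 0.90, Entpd3) to -1.24 (SE 0.20, Platr16). That of B4galnt3, -3.93 (SE 0.76), rested in part on primary 7, without which it was -2.31.

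Genes higher in the disseminated lines included repressors of transcription, a mitochondrial protein, a peptidase and an abundant growth-related protein. Trps1 (ENSMUSG00000038679.16, chr15:50654752-50890463, minus strand), which encodes a GATA-type repressor prominent in mammary epithelium, was at 43.4 to 81.0 CPM in the disseminated lines (median 72.2) and 28.5, 21.0 and 16.9 CPM in primary 5, 7 and 8. CTC 6 was its lowest disseminated line and still above all primary lines. The log2 change was 1.60 (SE 0.29), with an adjusted p of 0.448 in edgeR with Benjamini-Hochberg adjustment. The parental line, at 19.2 CPM, was within the primary values.

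Nipsnap2 (ENSMUSG00000029432.12, chr5:129725063-129758327, plus strand), a mitochondrial protein that marks damaged mitochondria for removal, was at 46.5 to 81.0 CPM in the disseminated lines (median 64.5) and 20.3, 11.2 and 26.4 CPM in primary 5, 7 and 8. The log2 change was 1.69 (SE 0.31), and the parental line, at 43.1 CPM, fell between the pools. Mxd4 (ENSMUSG00000037235.13, chr5:34173883-34187720, minus strand), a MAX partner that represses MYC targets, was at 22.5 to 114 CPM in the disseminated lines (median 94.3) and 16.02, 10.9 and 4.34 CPM in primary 5, 7 and 8. CTC 6, at 22.5 CPM, and metastasis 7, at 58.3 CPM, were below the other 4 disseminated lines, and the log2 change was 2.99 (SE 0.60). Cpq, a secreted carboxypeptidase, was at 25.2 to 128 CPM in the disseminated lines (median 67.7) and 13.5, 5.36 and 13.4 CPM in primary 5, 7 and 8. Cpq too was lowest in metastasis 7 and CTC 6 among the disseminated lines.

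Tpt1, the translationally controlled tumour protein gene, was the most abundant of the named genes at 3684 to 4704 CPM in the disseminated lines and 2486, 1826 and 2614 CPM in primary 5, 7 and 8. Its log2 change was 0.85 (SE 0.17). Extl3, a glycosyltransferase that starts heparan sulfate chains, was at 53.5 to 84.2 CPM in the disseminated lines (median 65.7) and 31.9, 28.8 and 42.7 CPM in primary 5, 7 and 8. Both genes showed small differences with tight pools. Mlh3, of DNA mismatch repair, was at 33.8 to 53.9 CPM in the disseminated lines (median 39.2) and 26.0, 20.8 and 19.6 CPM in primary 5, 7 and 8. Chmp1b, a subunit of the ESCRT-III membrane scission complex, was at 44.5 to 65.8 CPM in the disseminated lines (median 59.1) and 35.8, 30.5 and 29.6 CPM in primary 5, 7 and 8. Their log2 changes were 0.91 (SE 0.23) and 0.84 (SE 0.20).

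Osr1, an odd-skipped zinc finger factor, was at 11.7 to 42.6 CPM in the disseminated lines (median 19.9) and 7.58, 2.53 and 6.87 CPM in primary 5, 7 and 8. Zscan25, a zinc finger gene, was at 3.91 to 28.1 CPM in the disseminated lines (median 19.8) and 3.00, 2.24 and 2.53 CPM in primary 5, 7 and 8. CTC 3 and CTC 6, at 4.03 and 3.91 CPM, were close to the primary lines at Zscan25 while the other 4 were at 19.0 CPM or more. Insig2, which holds the SREBP machinery in the endoplasmic reticulum, was at 21.1 to 48.3 CPM in the disseminated lines (median 39.2) and 6.74, 15.7 and 18.2 CPM in primary 5, 7 and 8. Usp40, a deubiquitinase, was at 11.5 to 34.6 CPM in the disseminated lines (median 20.6) and 8.57, 6.07 and 8.04 CPM in primary 5, 7 and 8. Rabgap1l, a GTPase-activating protein for Rab GTPases, was at 2.95 to 16.3 CPM in the disseminated lines (median 5.31). Its levels in primary 5, 7 and 8 were 1.88, 1.42 and 1.12 CPM. The log2 changes of these 5 genes ran from 1.435 (SE 0.38, Insig2) to 2.64 (SE 0.70, Zscan25). Pcdhga1, a clustered protocadherin, was at 0.914 to 10.4 CPM in the disseminated lines and 0.252, 0.519 and 0.204 CPM in primary 5, 7 and 8. It shares its last exons with the other genes of the cluster, so its counts are uncertain.

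Coro1a, a coronin that binds actin mainly in leukocytes, was at 1.55 to 5.82 CPM in the disseminated lines (median 2.67) and 0.686, 0.852 and 1.01 CPM in primary 5, 7 and 8. Of the other leukocyte markers, Ptprc, Itgam and Lyz2 were at or under 0.261 CPM in all 9 lines. Mertk was at 8.74, 16.6 and 0.929 CPM in CTC 1, 3 and 6, at 19.4, 11.2 and 1.24 CPM in metastasis 3, 5 and 7, and at 4.5, 0.852 and 0.531 CPM in primary 5, 7 and 8. Cd68 was at 0.382 to 7.13 CPM in the disseminated lines and 1.29 to 5.36 CPM in the primary lines. Whether another cell type contributes to the Coro1a values was not tested, and its exons overlap those of Bola2 on the other strand.

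**Figure D4:**
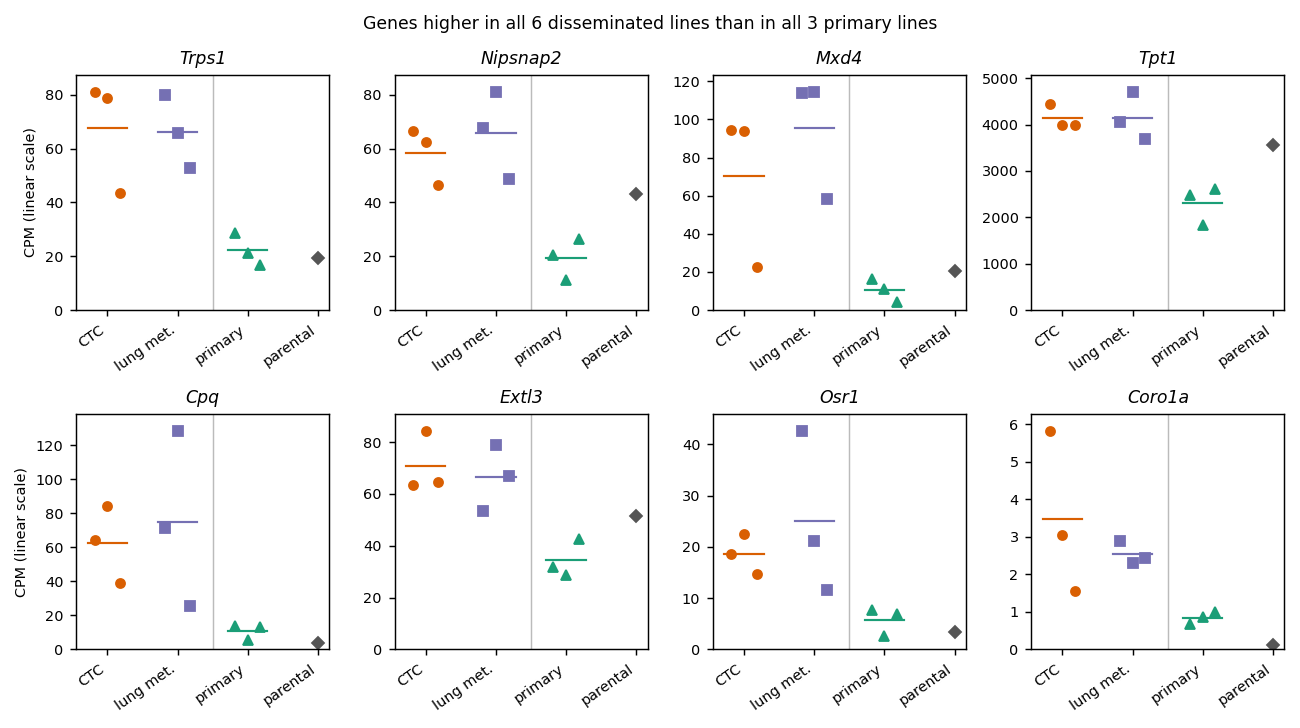
CPM on a linear axis of 8 genes higher in all 6 disseminated lines, 1 panel per gene, with 1 point per line and a short bar at the mean of each group of 3. CTC and lung metastasis lines stand left of the vertical line, primary and parental lines right of it. CTC 6 or metastasis 7 is the lowest disseminated point at 7 of the 8 genes, Extl3 being the exception with metastasis 5, at 53.5 CPM.

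The MYC, MAX and MXD network gave 2 separated genes of 12 tested, both higher (1.19% of all genes tested), Mxd4 and Mga, a large MAX partner that also carries a T-box. Mga was at 10.8 to 25.9 CPM in the disseminated lines (median 16.2) and 8.75, 8.96 and 10.4 CPM in primary 5, 7 and 8, and at 72.7 CPM in the parental line. Myc itself overlapped, at 183 to 1434 CPM in the disseminated lines (median 222) and 410.2 to 1721 CPM in the primary lines. The list had 9 members on the higher and 3 on the lower side, with a median log2 change of 0.53 and none called by edgeR.

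Among cell cycle genes 31 of 33 were on the lower side, with a median log2 change of -0.47 (-0.24 without primary 7, -0.30 without metastasis 5), none called by edgeR and none at an unadjusted p under 0.05. Over all genes tested 1.42% were separated on the lower side. The separated member of the list was Aurka, a kinase of the mitotic spindle. It was at 128, 124 and 126 CPM in CTC 1, 3 and 6, at 68.2, 26.6 and 70.6 CPM in metastasis 3, 5 and 7, and at 132, 154 and 162 CPM in primary 5, 7 and 8. The CTC lines were thus just below primary 5, and the metastasis lines further down. The mean log2 level of the list was 4.71 to 7.17 in the disseminated lines and 6.59 to 7.35 in the primary lines.

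All 13 mitochondrially encoded protein genes had a higher fitted value in the disseminated lines, with a median log2 change of 0.59, and 5 had an unadjusted p under 0.05, as did 3.32% of all genes tested on the higher side. The separated member, mt-Nd3 of respiratory complex I, was at 126 to 226 CPM in the disseminated lines (median 174) and 109.6, 118 and 75.9 CPM in primary 5, 7 and 8. The mitochondrial share of the named counts was 1.07% to 3.14% in the disseminated lines and 1.14% to 1.67% in the primary lines, so the pools overlapped in it. This share also follows RNA quality, whose part was not tested. The mitochondrial chromosome gave 4 of its 30 tested genes (13.3%) to the higher side, against 1.19% over all genes tested. These were mt-Nd3 and the transfer RNA genes mt-Ta, mt-Tc and mt-Ty, and none was separated on the lower side. Nuclear genes of oxidative phosphorylation had 21 of 27 on the lower side, with none separated and none called.

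The other lists gave few separated genes, where 1.19% of all genes tested were separated on the higher and 1.42% on the lower side. MHC class I genes had 14 of 18 on the higher side (median log2 change 0.45, and 0.12 without primary 8), with B2m, the shared light chain, at 953 to 2090 CPM in the disseminated lines (median 1073) and 915, 891 and 625 CPM in primary 5, 7 and 8. Inflammatory genes had 12 of 20 on the lower side (median -0.41, and -0.0079 without primary 8), with Il1a and Tnf separated. Both were scarce, Tnf at no more than 0.174 CPM in the disseminated lines and 0.532 CPM in the primary lines, and were chosen after their values were seen. Csf1, the macrophage growth factor gene, overlapped at 208 to 345 CPM in the disseminated lines and 272, 633 and 757 CPM in primary 5, 7 and 8. Tnfaip3, a brake on NF-kappaB, was at 53.5 to 69.8 CPM in the disseminated lines and 44.6, 189 and 260 CPM in primary 5, 7 and 8. Primary 5 lay among the disseminated lines at Csf1 and below all of them at Tnfaip3, with the other primary lines far above at both genes. Single members were separated on the lists of lysosomal and matrix proteases (Ctsb, higher), TGF-beta and BMP signalling (Bmpr1a, higher, which overlapped with total-count scaling) and the ER stress response (Dnajb9, higher). Of the ERBB and MAPK genes none of 19 was separated, nor was any of 22 WNT, 29 interferon-stimulated, 22 cholesterol synthesis, 24 glycolysis and hypoxia, 18 antioxidant or 17 p53 and CDK inhibitor genes. None of the members of these lists was called by edgeR. At an unadjusted p under 0.05 there were 5 of 20 inflammatory and 4 of 19 ERBB and MAPK genes on the lower side, and 0 of either on the higher side. The protease list had 4 of 23 on the lower and 3 on the higher side, and the p53 and CDK inhibitor list 3 of 17 and 1. Over all genes tested these shares were 4.11% on the lower and 3.32% on the higher side.

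The parental library, which the choice of genes did not use, took no single side. At the 207 higher genes it was at or beyond the disseminated values for 99 (47.8%), at or beyond the primary values for 86 (41.5%) and in the gap for 22 (10.6%). At the 247 lower genes it was on the disseminated side for 136 (55.1%), on the primary side for 96 (38.9%) and in the gap for 15 (6.07%). Acap1, Platr16 and Zbtb20 were on the disseminated side, while Postn, Afdn, Slc40a1 and Bhlhe40 were on the primary side. When the parental library was counted with the primary lines, an alternative added after the data were seen, 219 genes stayed separated.

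A few lines set most margins. The disseminated line nearest to the primary lines was CTC 6 at 74 and metastasis 7 at 46 of the 207 higher genes, and CTC 6 at 67 and metastasis 7 at 53 of the 247 lower ones. The primary line nearest to the disseminated lines was primary 5 at 109 of the higher and 159 of the lower genes. Without primary 5 the count of separated genes became 2984 (16.5% of those tested), and without CTC 6 it became 1257 (7.33%). It was 909 without primary 7, 932 without primary 8 and 697 without metastasis 7. Fewer lines make separation easier to meet, so a rise in these counts was largely built in. Of the 454, 444 were also separated without primary 5. A gene of the 454 can be lost in this way only through the filter or the scaling. Without CTC 6 and metastasis 7 together, added after the data were seen, edgeR called no gene and 3758 had an unadjusted p under 0.05.

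Within the pool, metastasis and CTC lines were also compared with each other at the separated genes. The genes had been chosen from the levels of these same 6 lines, so the counts are a description. In the fit of metastasis against CTC, 8 of the 207 higher genes (3.86%) and 16 of the 247 lower genes (6.48%) had an unadjusted p under 0.05, against 3.18% of all genes tested. None of the 454 was called by edgeR with Benjamini-Hochberg adjustment, and 1 of all 17355 was. Aurka was one of those with an unadjusted p under 0.05, with a log2 change of -1.20 for metastasis over CTC. A p that misses the threshold does not show that blood and lung lines were alike at the others.

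The transcript table shows which isoforms carried the counts. Of 49340 transcripts tested, edgeR called none, 2948 (5.97%) had an unadjusted p under 0.05 and 1295 (2.62%) were separated. The main coding transcript of Acap1 carried 88.6% to 92.6% of its counts in the disseminated lines and 90.1% to 95.2% in the primary lines. Its isoform use was thus alike in all 9 lines. At Zbtb20 the primary lines differed among themselves: Zbtb20-203 carried 82.2% of the counts in primary 5 and 82.6% in primary 8, and Zbtb20-204 carried 98.6% in primary 7. The window printed for this gene lies inside the gene, at an inner start site, and which of these transcripts starts there was not tested. At Afdn, Afdn-214 led with 68.4% in primary 5 and 87.8% in primary 8, while Afdn-212 led with 49.1% in primary 7. At Trps1, Trps1-202 carried 72.3% to 84.9% of the counts in the primary lines and between 2.72% (CTC 1) and 91.3% (metastasis 7) in the disseminated lines. StringTie splits reads among overlapping isoforms by estimation, so these shares are estimates.

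**Figure D5:**
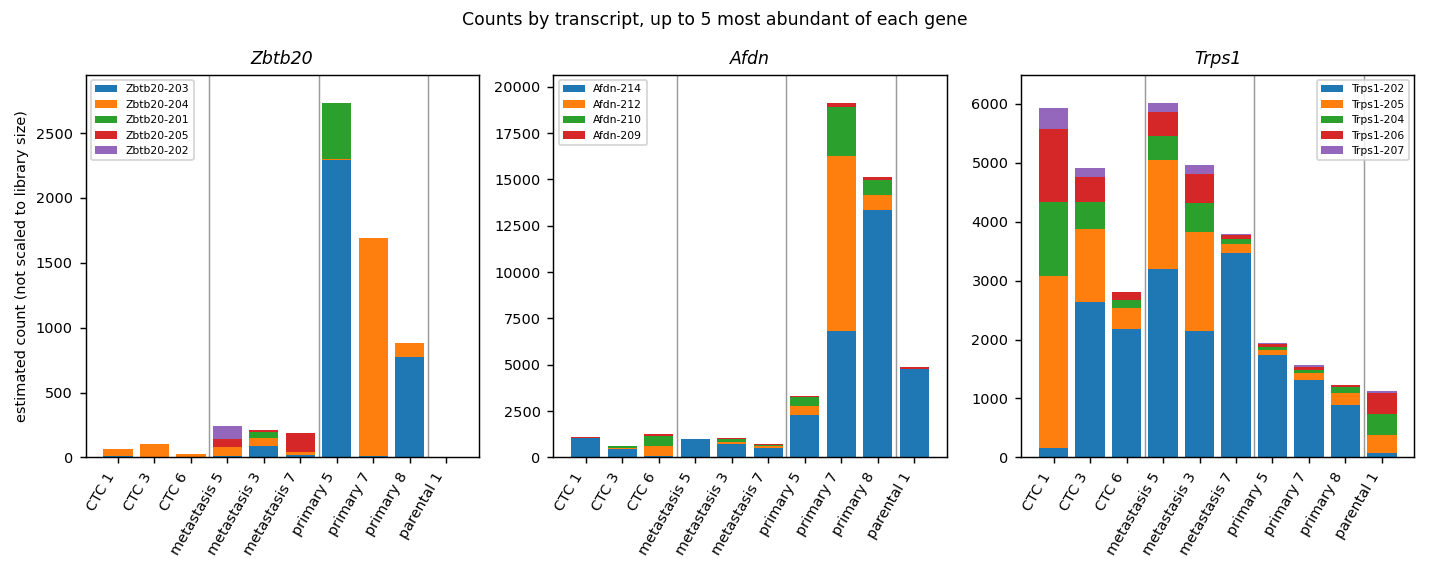
Estimated counts per transcript of Zbtb20, Afdn and Trps1 (vertical axis, linear and not scaled to library size) as stacked bars, 1 bar per line, with up to 5 transcripts per gene. Disseminated lines stand left of the primary lines, and the parental line is last. Primary 7 uses Zbtb20-204 where primary 5 and 8 use Zbtb20-203, and CTC 1 holds little of Trps1-202.

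Chromosome 14 gave 2.8% of its tested genes to the higher side, against 1.19% over all chromosomes. Chromosomes 16, 17 and 1 gave 2.28%, 2.23% and 2.2% to the lower side, against 1.42% over all. Of the separated genes, 154 of 207 higher (74.4%) and 193 of 247 lower ones (78.1%) were protein coding, close to the 75.5% of all genes tested. The mean log2 CPM was under 1 at 50 of the higher (24.2%) and 99 of the lower genes (40.1%), against 32.6% of all genes tested. Predicted genes, clones or pseudogenes made up 54 on each side (26.1% of the higher and 21.9% of the lower genes), against 26.5% over all. The widest gap on the higher side was at Ywhaq-ps3, a pseudogene whose reads can be shared with its parent gene. Exons were shared with another gene at 80 of the higher and 77 of the lower genes. The share over all genes tested was not counted, so these counts say nothing particular of the separated genes.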

How the data were processed

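RNA was sequenced from 10 lines, paired-end on an Illumina HiSeq instrument, per the labels' protocols. The deposited tables hold the authors' estimated counts per gene and per transcript, as whole numbers without scaling. Per the submitters' processing notes reads were handled on GRCm38 with StringTie 2.0.3, HISAT2 2.1.0 and DESeq2 1.26.0, listed without their roles, and the strand setting and annotation release are not given in the sources used here. Gene positions and overlaps came from GENCODE M21, in which 55340 of the 55418 named genes matched by symbol. The 17126 assembled entries without a name were left out, as was 1 transcript entry filled in 1 column only.

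Genes were tested with edgeR 4.0.16 (R 4.3.3): TMM factors, filterByExpr by pool, quasi-likelihood test on the 9 derived lines in 2 pools, Benjamini-Hochberg adjustment at 0.05 over 17355 genes. The SE of a log2 change is its size over the square root of F. Levels are CPM on TMM-scaled sizes, and the gap between pools is on log2(CPM + 0.5). The parental library entered no test outside the alternatives. DESeq2 1.42.0 and limma-voom (limma 3.58.1), other scalings and filters, and leaving out each line were alternatives. Each line had 79869760 counts or more, and at genes with few counts, such as Postn and Krt14, counting error adds to the spread between lines.

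The members and gene lists were chosen with earlier results of these data known. Named genes are, among those with a mean log2 CPM of at least 1 and no predicted, clone or pseudogene symbol, the 15 separated genes with the smallest p and the 5 with the widest gap in each direction, the 2 nearest to the rule on either side, separated or otherwise up to 3 members per list, and 6 fixed genes (Vim, Epcam, Cdh1, Erbb2, Ptprc and Xist). Xist and Ptprc did not pass the filter. The values of 1 gene that the rule takes are not reported here. Genes outside this rule are marked as chosen after their values were seen, and those of the list descriptions, the heat map and the marker lists are named as members of these.

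The numbers in titles are shared by primary 5 and metastasis 5, primary 7 and metastasis 7, and CTC 3 and metastasis 3. Deviations from the group means correlated over genes at 0.406, 0.114 and 0.517 in these 3 pairs. The median of the remaining pairs of lines from different groups was -0.053. The numbers were used as pairing in the block alternatives only, since the labels do not state it and the values do not settle it. Some pairs with different numbers correlated more strongly, such as CTC 6 with metastasis 7 (0.61). Metastasis 7 also correlated more with primary 8 (0.378) than with primary 7 (0.114). Only the numbers 5 and 7 occur in both pools, so the log2 changes of the fixed block rest on the lines with these numbers. The random block gave same-number lines a correlation of 0.589.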

Additional observations from a re-analysis of the deposited data

Results flagged for a closer look

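In 5 of 49 genes examined, 1 of the 6 disseminated lines stood apart from the other 5 by Dixon's test at its 95% critical value. Chance alone flags about 1 in 20 such groups where values are normally distributed, which was not tested for these CPM on the linear scale. In all 5 genes the line that stood apart was the highest of the 6. Itga2, an integrin subunit that binds collagen, was at 89.1 CPM in CTC 6 and at 17.4 to 25.4 CPM in the other 5 disseminated lines. Its primary lines were at 54.5, 130.3 and 112 CPM, so CTC 6 lay among them. Cdh1 was at 399 CPM in metastasis 7 and at 77.7 to 150 CPM in the other 5, and its primary lines were at 108, 634 and 415 CPM. For both genes the line that stood apart was one of those that most often set the margin towards the primary lines.

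B2m was at 2090 CPM in metastasis 5 and at 953 to 1225 CPM in the other 5 disseminated lines. Osr1 was at 42.6 CPM in metastasis 5 and at 11.7 to 22.6 CPM in the other 5. Coro1a was at 5.82 CPM in CTC 1 and at 1.55 to 3.04 CPM in the other 5. For these 3 genes the line that stood apart lay on the far side from the primary lines, so the separation did not rest on it.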

How the results depend on the processing

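The count of genes called, 1 in the edgeR test described, was 3 with total-count scaling, 3 with at least 1 CPM in 3 lines, 126 with DESeq2, 2 with limma-voom and 5 with all entries, 4 of them assembled transcripts. It was 8 with the title number as a random replicate block, and 0 in edgeR with the number as a fixed replicate block (2392 at an unadjusted p under 0.05), with all 10 libraries in 4 groups (1513) and without CTC 6 and metastasis 7 (3758). Leaving out 1 line gave 0 to 13 genes, the 13 without primary 5, and 0 to 7 transcripts. For metastasis against CTC the count of 1 was 28 with DESeq2, 0 in edgeR without a filter (779 at an unadjusted p under 0.05), with all entries (1186) and with the fixed replicate block (347), and 0 to 1 with 1 line left out. The count of separated genes was 806 with all entries, 26 with a gap of at least 0.5 and 219 with the parental library on the primary side. It was 489 to 2984 with 1 line left out, where separation is easier to meet. With 1 line left out, list medians ran from -2.21 to -0.83 (epithelial), -0.19 to 0.043 (iron), 0.0037 to 0.37 (antioxidant), -0.30 to 0.18 (ERBB and MAPK), 0.12 to 0.45 (WNT), -0.96 to 0.54 (interferon), -0.77 to -0.0079 (inflammatory) and -0.60 to 0.65 (cholesterol). The cause of these shifts was not tested. Of 980 log2 changes of 49 genes under 20 alternatives, none reversed and 45 passed the threshold where the reported value had not. Another 10, all of Acap1, no longer passed it. Most of these genes had been chosen because their lines did not overlap, so a reversal was hardly possible. Acap1 alone had passed in the reported test, so no other gene could lose its call. Genes with few counts, such as Postn and Krt14 in the disseminated lines, are limited by depth as well as by the number of lines.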
